A study of Mus musculus with 8 samples.

Results

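The unfolded protein response and the integrated stress response were followed through 10 genes, Atf4, Ddit3, Xbp1, Trib3, Asns, Chac1, Hspa5, Hsp90b1, Dnajb9 and Herpud1, chosen by name from a count table of 56748 genes. These symbols matched 11 rows of the table, because Ddit3 is listed a second time as an entry of 105 bases inside the gene that had no count in any library. The main row of all 10 genes was among the 14279 genes tested. The counts came from mouse primary hepatocytes in 4 groups of 2 libraries. C57BL/6J mice of 7 to 8 weeks that carried floxed alleles of both genes (Yapfl/fl; Tazfl/fl) received AAV8-TBG-Cre for the knockout (Yap/TazHepKO, KO) or AAV8-TBG-Null for the control, called wild-type (WT), so the WT cells carried the floxed alleles too. The TBG promoter restricts Cre to hepatocytes. Cells were isolated 10 days after the virus and kept for 24 h on collagen-coated hydrogels of 1 kPa (soft) or 20 kPa (stiff), which stand for healthy and diseased liver. The labels do not say whether the 2 libraries of a group came from separate mice, so the p-values measure the spread between these libraries.

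The unfolded protein response detects misfolded protein in the endoplasmic reticulum (ER) through 3 sensors, PERK (Eif2ak3), IRE1α (Ern1) and ATF6. PERK phosphorylates the translation factor eIF2α, as do the kinases of the integrated stress response, and this slows general translation while that of ATF4 rises. ATF4 induces amino acid and redox genes and CHOP (Ddit3), IRE1α splices the Xbp1 mRNA into the form that encodes an active factor, and ATF6 and XBP1 induce ER chaperones and the degradation machinery. Hepatocytes secrete most plasma proteins and rely on this capacity. Counts per gene show mRNA amounts only, not the splicing of Xbp1 or the translation of Atf4.

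Promoter windows of RefSeq (build GRCm38.p6, 250 bases before to 50 after the start) were found for all 10 genes and were searched on both strands for elements known from this response. The first was the ER stress response element ERSE, CCAAT and CCACG with 9 bases between them, bound by ATF6 with NF-Y, which was present in 0.119% of the 32851 windows of all genes and in those of 2 of the 10 genes. ERSE-II, ATTGG and CCACG with 1 base between them, was present in 0.0365% of all windows and in 1 of the 10. The C/EBP-ATF response element CARE, TGATGNAA, was present in 3.97% of all windows and in 4 of the 10, and the related TGACGCAA in 0.49% and in 3. The XBP1 element UPRE, TGACGTGG, was in 0.676% of all windows and in 0 of the 10. No match overlapped another. The stretches upstream of the start that hold the matches are printed to show which element each gene carries. Capitals mark the matches, all are written 5′ to 3′ on the strand of the gene, and a match to the other strand appears as its reverse complement.
Hspa5 (chr2:34772015-34772053, plus strand, ERSE): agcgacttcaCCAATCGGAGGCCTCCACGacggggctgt
Hsp90b1 (chr10:86705523-86705666, minus strand, ERSE in both orientations): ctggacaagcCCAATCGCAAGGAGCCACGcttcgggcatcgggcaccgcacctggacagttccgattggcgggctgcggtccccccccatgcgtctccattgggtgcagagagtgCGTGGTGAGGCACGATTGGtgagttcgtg
Herpud1 (chr8:94386289-94386397, plus strand, TGACGCAA, CARE and ERSE-II): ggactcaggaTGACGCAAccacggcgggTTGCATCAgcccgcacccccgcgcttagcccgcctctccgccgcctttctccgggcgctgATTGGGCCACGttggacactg
Dnajb9 (chr12:44210191-44210218, minus strand, TGACGCAA): gcgacggaagTGACGCAAggaccaaacg
Chac1 (chr2:119350992-119351066, plus strand, TGACGCAA and CARE): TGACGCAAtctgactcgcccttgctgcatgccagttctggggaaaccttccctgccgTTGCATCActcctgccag
Asns (chr6:7693215-7693242, minus strand, CARE): cccagccacaTGATGAAActtcccgcac
In Trib3 the CARE match lay 15 to 22 bases after the start and is not printed. The windows of Atf4, Ddit3 and Xbp1 held none of these letters. A match describes the letters of the window and was not tested as a site. The elements and the 10 genes are known from the same response, so matches in the 10 are no independent evidence.

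Library totals ran from 18324083 to 26442310 counts, and 3 counts, the most that a gene listed at 0 could reach at 95% confidence by counting error alone, were worth 0.113 to 0.164 CPM (normalized counts per 1e+06). Yap1 had 1720 to 2913 counts in the WT and 606 to 747 in the KO libraries, and Wwtr1, which encodes TAZ, had 748 to 1325 and 277 to 410, so neither gene overlapped between the genotypes. The labels give the mice as female in one place and male in another. Xist had 4818 to 8443 counts in every library, and the Y-linked genes Ddx3y, Eif2s3y, Kdm5d and Uty had 0, which is the pattern of female cells. The 7 hepatocyte markers summed to 88041 to 92676 CPM in the WT and to 60851 to 61481 in the KO libraries. Most of each sum was Alb, with means of 81923 and 86595 CPM on WT soft and stiff and 54977 and 54678 on KO soft and stiff. On the stiff hydrogel 2 of the 7 (Hnf4a and Tat) were higher in KO and 2 (Alb and Cps1) lower by the rule given below. Of all tested genes 13.7% were called higher there and 15.0% lower. The 6 endothelial markers summed to 51.9 and 57.3 CPM on WT soft, 36.7 and 37.1 on WT stiff, and 69.0 to 73.9 in the KO libraries. The 6 markers of Kupffer cells and macrophages summed to 61.7 and 62.8, 42.6 and 48.4, and 85.9 to 86.7 CPM, and the 7 of stellate cells and fibroblasts to 23.0 and 23.8, 16.5 and 17.7, and 31.4 to 35.5 CPM. The 5 cholangiocyte markers, of which Krt19 and Spp1 can also be expressed by hepatocytes, summed to 548 and 584, 599 and 602, and 320 to 348 CPM. Most of this sum was Spp1, and most of the macrophage sum was Cd68. Krt19 had means of 2.13 CPM on WT soft, 20.6 on WT stiff, 0.64 on KO soft and 0.70 on KO stiff. Those of Sox9 were 38.5, 40.1, 37.0 and 36.6 CPM. None of these markers was at 0 in all libraries. The endothelial, macrophage and stellate sums were thus lowest on WT stiff and highest in the KO, as the genes described here mostly were, and their part in the results was not tested. Between the hydrogels in WT, 3 of 6 endothelial, 3 of 6 macrophage, 2 of 6 tested stellate and 2 of 7 hepatocyte markers fell by the rule given below, while 1 stellate marker (Col1a1) and 1 of 4 tested cholangiocyte markers (Krt19) rose, where 9.26% of all tested genes fell and 10.0% rose. Fewer cells of a type and less RNA per cell cannot be told apart in such bulk libraries.

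Per length of the gene, Hspa5 was the most abundant of the 10 genes, at 271.6 RPKM (CPM per kilobase of the deposited gene length, mean of the 8 libraries). Xbp1 followed at 108.8, Atf4 at 104.6, Hsp90b1 at 85.3 and Trib3 at 63.99 RPKM. The other genes lay between 18.7 (Ddit3) and 29.7 RPKM (Dnajb9). The libraries of WT hepatocytes on the stiff hydrogel held the least of every one of them. For all 10 genes both WT stiff libraries lay below each of the other 6 libraries, which was so for 26.1% of the tested genes. The highest group mean was on KO soft for 5 genes, KO stiff for 3 and WT soft for 2 (Hspa5 and Chac1). Replicates were close, with a coefficient of variation between 0.0577% and 12.99%, the last for Trib3 on WT stiff, and a median of 2.15%.

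**Figure D1:**
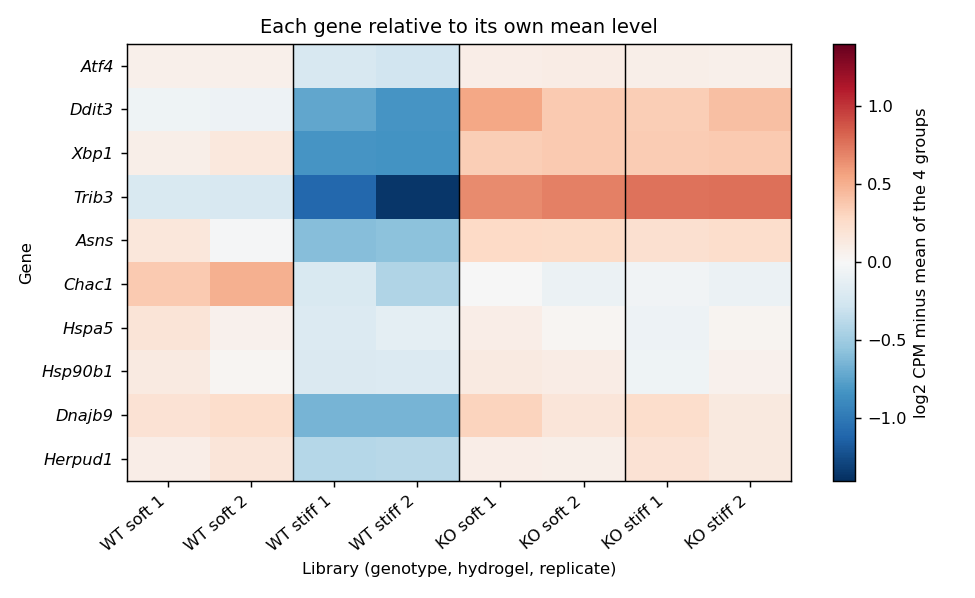
Colour shows the log2 CPM of each gene (rows) in each of the 8 libraries (columns, by genotype, hydrogel and replicate) minus the mean of its 4 group means. The WT stiff columns are blue in every row, from -0.14 for Hspa5 to -1.37 for Trib3, while the KO columns of Trib3 reach 0.77.

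In WT hepatocytes the stiff hydrogel gave lower levels of all 10 genes. A gene was called changed at an adjusted p under 0.05 (quasi-likelihood test of edgeR, adjusted by Benjamini-Hochberg over all tested genes) and an absolute log2 fold change over 0.5. By this rule 7 of the 10 genes fell and 0 rose, where 9.26% of all tested genes fell and 10.0% rose. No gene of the 10 was higher at an unadjusted p under 0.05, where 3481 of the 14279 tested genes were. DESeq2 also called 7 lower and 0 higher. At an adjusted p under 0.05 without a minimum fold change all 10 were lower, against 20.0% of the tested genes. The libraries of the WT groups did not overlap for any of the 10, which was so in this direction for 34.8% of the tested genes. The median log2 fold change of the 10 genes was -0.69, and that of all tested genes was -0.0087.

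Of the transcription factors, Atf4, Ddit3 and Xbp1, the last fell the most. Xbp1 (ENSMUSG00000020484, chromosome 11 from 5470659 to 5475893 in the deposited table, which names no genome build) encodes the factor that raises ER folding and secretory capacity. Its libraries held 356 and 372 CPM on WT soft, 190 and 188 on WT stiff, 426 and 432 on KO soft and 432 and 432 on KO stiff. The 4 KO libraries were thus the highest and nearly equal, and the WT stiff libraries stood far below the WT soft ones. Its WT stiffness effect was -0.94 on the log2 scale (standard error 0.040, adjusted p = 1.59e-12 from edgeR), and only 6.15% of the tested genes had a lower value. Ddit3 (ENSMUSG00000025408, chromosome 10 from 127126643 to 127132157), which encodes CHOP, a factor linked to cell death under lasting stress, was the least abundant of the 10. It had 29.2 and 29.0 CPM on WT soft, 18.4 and 17.1 on WT stiff, 44.4 and 39.2 on KO soft and 38.6 and 40.9 on KO stiff. The 2 KO groups overlapped, and both lay above WT soft, which lay above WT stiff. In WT it fell by 0.71 on the log2 scale (standard error 0.086, adjusted p = 2.41e-06 from edgeR).
Atf4 (ENSMUSG00000042406, chromosome 15 from 80139385 to 80141742) had 258.6 and 257.6 CPM on WT soft, 209.7 and 204.4 on WT stiff, 262.2 and 263.6 on KO soft and 259.4 and 258.5 on KO stiff. WT stiff stood apart, and the other 6 libraries lay within 257.6 to 263.6 CPM. Its log2 fold change in WT was -0.32 (standard error 0.041, adjusted p = 4.59e-06 from edgeR), under the minimum of 0.5, so it was not called. Ddit3 shares its locus with Mars1 on the opposite strand, which averaged 2506 counts in a library. How strand entered the counting is not given in the sources used here, so the count of Ddit3 is uncertain. Of the 64-base windows of the longest reference transcript of Ddit3, 0.605% also occur in another gene. Mars1 had a log2 fold change of -0.081 in WT (adjusted p = 0.263 from edgeR), with 116 ± 0.0030 CPM on soft and 109.5 ± 1.89 on stiff (SD, n = 2).

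Trib3, Asns and Chac1, targets of ATF4 in amino acid, redox and growth signalling, all fell. Trib3 (ENSMUSG00000032715, chromosome 2 from 152179342 to 152185952), a pseudokinase that restrains AKT and ATF4, covered the widest range. It had 102 and 101.5 CPM on WT soft, 55.2 and 45.9 on WT stiff, 187 and 193 on KO soft and 201 and 202.5 on KO stiff. No group overlapped another, and the KO stiff mean of 202 ± 1.04 CPM (SD, n = 2) was the highest and the WT stiff mean of 50.5 ± 6.56 the lowest. The WT stiffness effect was -1.01 on the log2 scale (standard error 0.066, adjusted p = 6.20e-10 from edgeR). Asns (ENSMUSG00000029752, chromosome 6 from 7675169 to 7693254) makes asparagine, and had 76.0 and 67.6 CPM on WT soft, 45.0 and 45.8 on WT stiff, 82.9 and 82.1 on KO soft and 79.8 and 80.6 on KO stiff. It was low on WT stiff alone, with the remaining libraries between 67.6 and 82.9 CPM, and fell by 0.66 on the log2 scale in WT (standard error 0.062, adjusted p = 8.70e-08 from edgeR). Chac1 (ENSMUSG00000027313, chromosome 2 from 119181710 to 119184862), which degrades glutathione, had 51.9 and 57.0 CPM on WT soft, 34.7 and 30.2 on WT stiff, 40.1 and 38.0 on KO soft and 39.0 and 38.2 on KO stiff. Unlike Trib3 and Asns it was highest on WT soft, with the KO libraries between the WT groups. Its WT stiffness effect was -0.74 on the log2 scale (standard error 0.075, adjusted p = 2.66e-07 from edgeR).

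**Figure D2:**
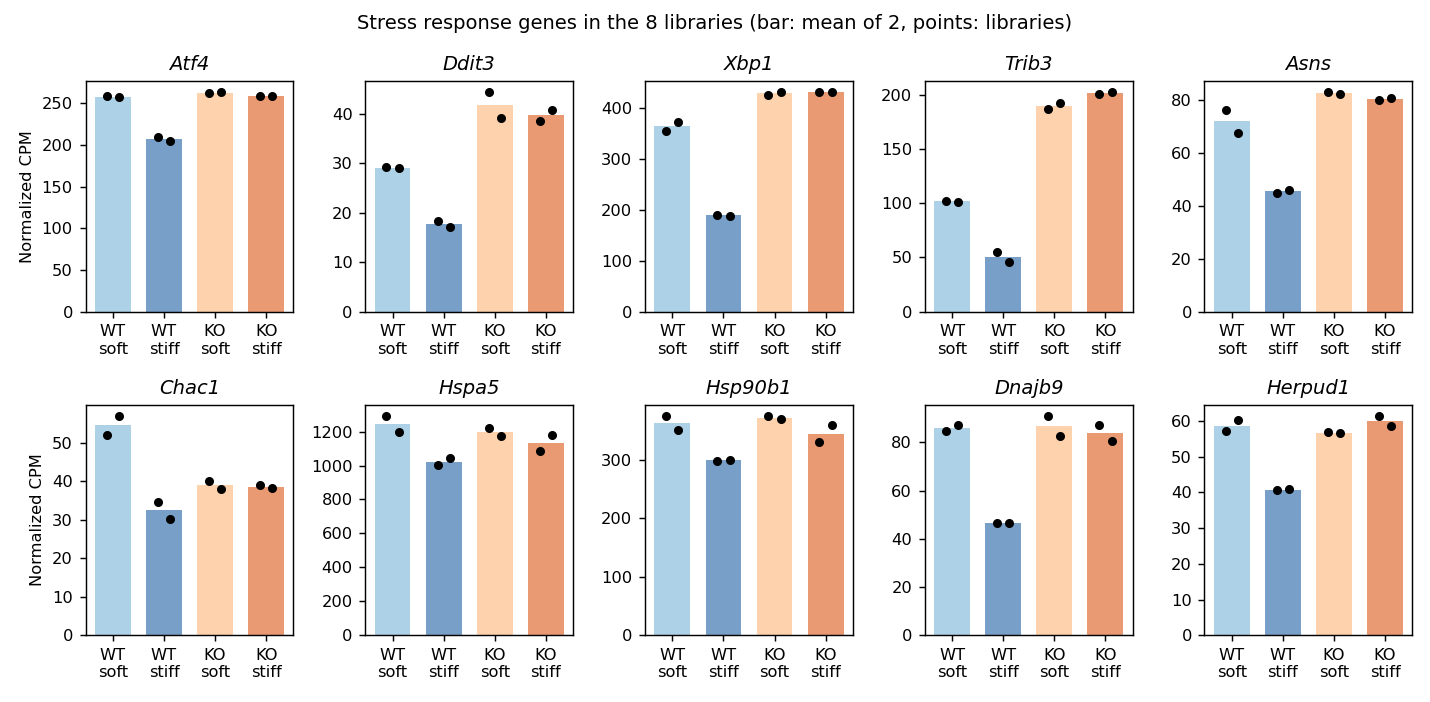
Each panel shows 1 gene, with normalized CPM on a linear axis from 0, bars for the mean of the 2 libraries of a group and points for the libraries. WT stiff is the lowest bar in all 10 panels, Trib3 spans 50.5 to 202 CPM, and Chac1 is highest on WT soft at 54.5 CPM.

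Between the hydrogels in WT the ER chaperones Hspa5 and Hsp90b1 had the smallest changes of the 10 genes, and the co-chaperone Dnajb9 fell more than both. Hspa5 (ENSMUSG00000026864, chromosome 2 from 34661982 to 34667559) encodes BiP, the main chaperone of the ER lumen, and carries the ERSE printed above. It had 1293 and 1198 CPM on WT soft, 1002 and 1042 on WT stiff, 1219 and 1171 on KO soft and 1088 and 1177 on KO stiff. The WT stiff libraries were the lowest, and the other 3 groups were neighbours, KO soft overlapping both WT soft and KO stiff. Its log2 fold change in WT was -0.29 (standard error 0.043, adjusted p = 2.94e-05 from edgeR). Hsp90b1 (ENSMUSG00000020048, chromosome 10 from 86526073 to 86541373), the ER form of HSP90, had 374 and 350 CPM on WT soft, 297 and 300 on WT stiff, 375 and 369 on KO soft and 329.5 and 358 on KO stiff. Here WT soft overlapped with both KO groups, and the log2 fold change in WT was -0.28 (standard error 0.046, adjusted p = 8.61e-05 from edgeR). Neither chaperone reached the minimum fold change, so neither was called. Of the 64-base windows of its longest reference transcript, 11.3% also occur in other genes, so the count of Hsp90b1 is uncertain where such reads could be split.
Dnajb9 (ENSMUSG00000014905, chromosome 12 from 44252342 to 44257109) is a co-chaperone of BiP that takes part in ER-associated degradation. It had 84.5 and 87.0 CPM on WT soft, 46.7 and 46.7 on WT stiff, 91.0 and 82.5 on KO soft and 87.0 and 80.4 on KO stiff, so that WT soft lay within the range of the KO libraries. It fell by 0.88 on the log2 scale in WT (standard error 0.063, adjusted p = 2.17e-09 from edgeR), and it shares 4.09% of its windows with another gene. Herpud1 (ENSMUSG00000031770, chromosome 8 from 95113066 to 95122005), a membrane protein of the degradation complex, had 57.1 and 60.3 CPM on WT soft, 40.55 and 40.9 on WT stiff, 56.9 and 56.65 on KO soft and 61.45 and 58.7 on KO stiff. The WT stiff libraries stood apart below all others, which lay within 56.65 to 61.45 CPM. Its WT stiffness effect of -0.53 (standard error 0.061, adjusted p = 1.31e-06 from edgeR) was just past the minimum, and without the second WT soft library it was -0.48 and no longer called.

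In KO hepatocytes none of the 10 genes was called between the hydrogels by edgeR or DESeq2, as was so for nearly all genes (0.0210% called). The log2 fold changes lay between -0.11 (Hsp90b1) and 0.090 (Trib3) with a median of -0.031, where the median of all tested genes was 0.0076. Hsp90b1 was the only one with an unadjusted p under 0.05 (adjusted p = 0.610 from edgeR). The 95% interval of Hsp90b1 ran from -0.21 to -0.016, that of Xbp1 from -0.073 to 0.090, and that of Ddit3, the widest, from -0.24 to 0.086. The WT estimate lay below the interval of each of the 10 genes. For Xbp1 the lower bound of -0.073 stood against an estimate of -0.94 in WT, for Hspa5 that of -0.17 against -0.29, and for Hsp90b1 that of -0.21 against -0.28. The error of the WT estimates is left out of this, and the WT interval of Hsp90b1, from -0.37 to -0.18, overlapped that in KO.

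The difference between the genotypes was tested as the interaction, the stiffness effect in KO minus that in WT. It was positive for all 10 genes and called for 7, all in this direction, where 8.64% of the tested genes were called more positive in the KO and 8.21% more negative. DESeq2 called 7 more positive and 0 more negative as well, and edgeR had 0 more negative at an unadjusted p under 0.05. The largest were Trib3 with 1.10 (standard error 0.089, adjusted p = 2.66e-08 from edgeR), Xbp1 with 0.95 (standard error 0.055, adjusted p = 3.55e-10 from edgeR) and Dnajb9 with 0.82 (standard error 0.086, adjusted p = 7.44e-07 from edgeR). Chac1, Ddit3, Asns and Herpud1 lay between 0.61 and 0.72. Atf4 (0.30, adjusted p = 0.000645 from edgeR) and Hspa5 (0.21, adjusted p = 0.0144 from edgeR) passed the p threshold without the minimum size, and Hsp90b1 passed neither (0.17, adjusted p = 0.0648 from edgeR). The p threshold alone was thus passed by 9 of the 10, against 15.3% of the tested genes in this direction. Hspa5 no longer passed it without the first WT soft (0.14, adjusted p = 0.0832 from edgeR), first WT stiff (0.17, adjusted p = 0.118), second KO soft (0.17, adjusted p = 0.0925) or second KO stiff library (0.14, adjusted p = 0.0858). Hsp90b1 passed it without the second WT soft (0.20, adjusted p = 0.0249 from edgeR) or the first KO stiff library (0.22, adjusted p = 0.0160). The same 7 genes were called here and in WT. The WT libraries enter both tests, so the values of the latter are no independent support for the former.

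**Figure D3:**
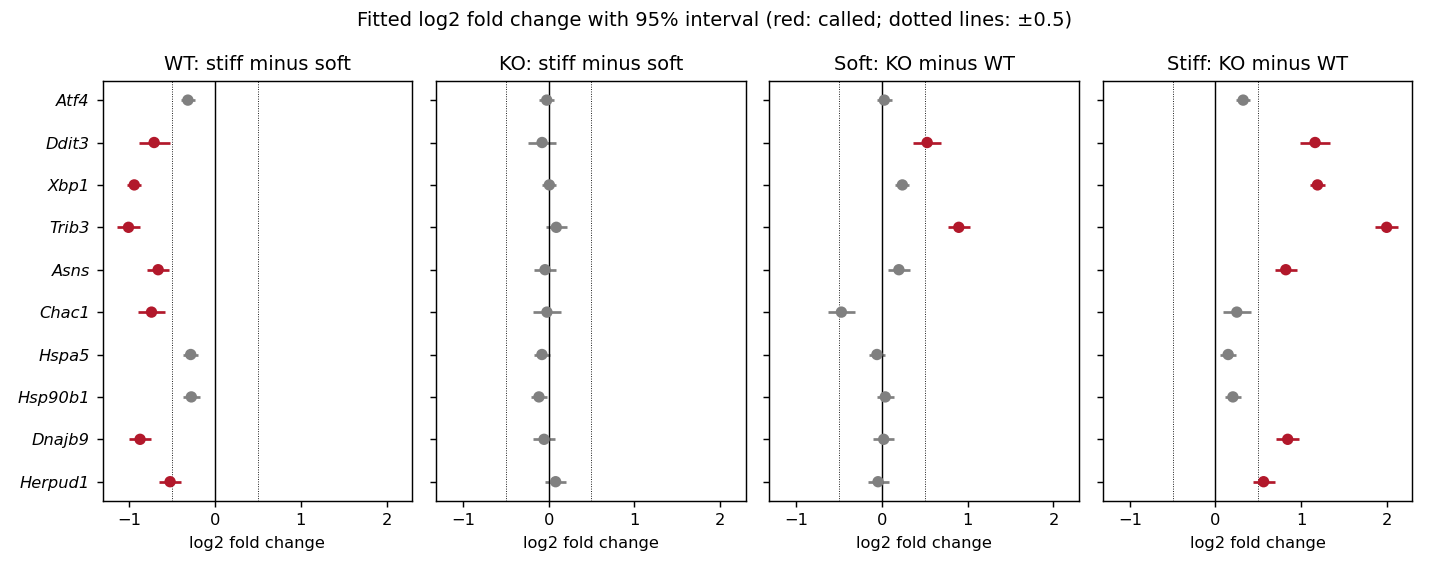
Points show the fitted log2 fold change of each gene with its 95% interval in 4 comparisons, in red where called, and dotted lines mark the minimum of 0.5. In WT all points lie left of 0 (-1.01 to -0.28), in KO all lie between -0.11 and 0.090, and on the stiff hydrogel all KO minus WT values are positive, up to 2.00 for Trib3.

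On the soft hydrogel the genotypes differed in 3 of the 10 genes by more than 0.4 on the log2 scale, and not all in one direction. Trib3 was higher in KO by 0.90 (standard error 0.061, adjusted p = 4.32e-09 from edgeR) and Ddit3 by 0.53 (standard error 0.079, adjusted p = 7.62e-05 from edgeR). These were the 2 genes called higher, against 2.02% of all tested genes, and 0 were called lower by edgeR or DESeq2, against 4.65%. Without the first KO soft library Ddit3 was at 0.43 and not called. At an adjusted p under 0.05 without a minimum size, 4 of the 10 were higher in KO (7.48% of the tested genes) and 1 lower (10.9%). Chac1, the only gene lower at an unadjusted p under 0.05, was at -0.47 (standard error 0.073, adjusted p = 0.00011 from edgeR), just short of the minimum, and was called without the first WT soft library (-0.54) or the first KO soft library (-0.52). Xbp1 (0.24) and Asns (0.20) were higher in KO at an adjusted p of 0.000203 and 0.0259 (edgeR) but under the minimum. Asns missed the p threshold with DESeq2 (adjusted p = 0.0679), on the 4 libraries compared (adjusted p = 0.0521 from edgeR), and without the second WT soft (0.12, adjusted p = 0.239), first KO soft (adjusted p = 0.148) or second KO soft library (adjusted p = 0.102). For the remaining 5 genes no difference was found, with intervals that lay within -0.17 and 0.14.

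On the stiff hydrogel all 10 genes were higher in KO than in WT at an adjusted p under 0.05 (edgeR), against 25.4% of the tested genes, and 6 of them were called higher, against 13.7%. None was called lower, where 15.0% of the tested genes were, or was lower at an unadjusted p under 0.05, and DESeq2 called 6 higher and 0 lower. Trib3 rose by 2.00 on the log2 scale, which is 3.99-fold (standard error 0.065, adjusted p = 1.65e-14 from edgeR), Xbp1 by 1.19 or 2.28-fold (standard error 0.040, adjusted p = 2.38e-14 from edgeR) and Ddit3 by 1.16 or 2.24-fold (standard error 0.084, adjusted p = 1.51e-09 from edgeR). Dnajb9 (0.84), Asns (0.82) and Herpud1 (0.56) were called as well. Atf4 (0.32), Chac1 (0.25), Hsp90b1 (0.20) and Hspa5 (0.15) stayed under the minimum. With DESeq2 Chac1 missed the p threshold (adjusted p = 0.0555), so 9 of the 10 passed it. Chac1 also missed it without the second WT stiff (0.14, adjusted p = 0.234 from edgeR) or the first KO stiff library (adjusted p = 0.0665), and Hspa5 without the first WT stiff (0.11, adjusted p = 0.145) or the second KO stiff library (0.080, adjusted p = 0.168). Without the second KO stiff library Hsp90b1 was at 0.13 and still passed. This comparison shares the WT stiff libraries with the stiffness effect in WT, in which they were the lowest.

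The sensors upstream of these genes were not uniform in WT hepatocytes. A list of 12 genes held the sensors, the proteases of ATF6 (Mbtps1 and Mbtps2), eIF2α, its kinases and its phosphatase subunits. On the stiff hydrogel 3 of these fell and 1 rose, where 9.26% of all tested genes fell and 10.0% rose. The median log2 fold change of the 12 was -0.12. At an unadjusted p under 0.05, 3 were higher and 6 lower, against 3481 and 3373 of all 14279 tested genes. Ern1 had 124 and 124 CPM on WT soft, 61.5 and 56.9 on WT stiff and 136 to 145 in the KO libraries, and fell by 1.07 on the log2 scale in WT (adjusted p = 3.04e-11 from edgeR). The WT stiff libraries were the only low ones. Eif2ak3 had 65.6 ± 2.46 CPM on WT soft and 40.1 ± 1.24 on WT stiff (SD, n = 2) and fell by 0.71 on the log2 scale (adjusted p = 1.30e-07 from edgeR). Atf6 had 129 ± 0.554 and 89.7 ± 3.57 CPM (SD, n = 2), and its log2 fold change of -0.53 (adjusted p = 8.37e-08 from edgeR) was -0.48 and not called without the second WT stiff library. The mRNAs of these 3 sensors were thus lower, while Atf6b, also in the list, was at 0.16 (adjusted p = 0.088 from edgeR). Eif2ak2, the kinase PKR that responds to double-stranded RNA, rose by 0.56 (adjusted p = 3.35e-07 from edgeR). Eif2ak4, the kinase GCN2 that responds to amino acid shortage, was at 0.016 (adjusted p = 0.921 from edgeR), Eif2s1, which encodes eIF2α, at 0.20 (adjusted p = 0.0097 from edgeR), and Ppp1r15a, the stress-induced phosphatase subunit GADD34, at -0.13 (adjusted p = 0.078 from edgeR). In KO hepatocytes 0 of the 12 were called by edgeR or DESeq2, and 1 had an unadjusted p under 0.05.

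Of 27 target genes of ATF4 and CHOP outside the 10 genes, 26 were tested. Ppp1r15a, given above with the sensors, is also one of these. In WT hepatocytes 7 fell on the stiff hydrogel and 0 rose, where 9.26% of all tested genes fell and 10.0% rose. Of the 26, 23 had a negative log2 fold change, and the median was -0.40. DESeq2 called 6 lower and 0 higher. At an adjusted p under 0.05 (edgeR) without a minimum size 17 were lower (20.0% of all tested genes) and 2 higher. At an unadjusted p under 0.05 these numbers were 20 and 2, where 3373 of all 14279 tested genes were lower and 3481 higher. Slc7a11, the cystine transporter subunit that supplies glutathione synthesis, changed the most. It had 405 ± 14.3 CPM on WT soft, 101 ± 2.82 on WT stiff, 586 ± 8.54 on KO soft and 599 ± 1.56 on KO stiff (SD, n = 2), and fell by 2.01 on the log2 scale in WT (adjusted p = 1.36e-16 from edgeR). Fgf21, a hormone secreted by the stressed liver, had 17.3 ± 2.70 CPM on WT soft and 5.68 ± 0.735 on WT stiff (SD, n = 2) and fell by 1.60 (adjusted p = 2.24e-08 from edgeR). Atf3 was at -0.43 (adjusted p = 0.000244 from edgeR) and short of the minimum, which it passed without the second WT soft library (-0.52). In KO 0 of the 26 were called by edgeR or DESeq2 or had an unadjusted p under 0.05. The interaction was called for 6 (5 by DESeq2), all more positive in the KO, against 8.64% of all tested genes. At an adjusted p under 0.05 (edgeR) without a minimum size it was more positive for 14 and more negative for 2. The same was so for 2180 and 2012 of all 14279 tested genes. On stiff, 7 were called higher in KO than in WT and 3 lower, against 13.7% and 15.0% of all tested genes. The 12 tRNA synthetase genes, several of them ATF4 targets, had 0 genes called in WT by edgeR or DESeq2, 5 lower and 1 higher at an unadjusted p under 0.05, and a median of -0.091.

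In the rest of the ER machinery the shares of genes called in WT lay near those of all tested genes or under them. Of all tested genes 9.26% fell and 10.0% rose. At an unadjusted p under 0.05, 3373 of all 14279 tested genes were lower in WT and 3481 higher. Of 17 further chaperones and folding enzymes 1 fell and 0 rose in WT, 5 were higher and 7 lower at an unadjusted p under 0.05, and the median was 0.00076. The gene that fell was Ero1b, an oxidase of the ER, which had 31.4 ± 2.85 CPM on WT soft and 19.6 ± 0.429 on WT stiff (SD, n = 2) and a log2 fold change of -0.67 (adjusted p = 5.27e-06 from edgeR). Of 15 genes of ER-associated degradation 2 fell and 0 rose, 8 were lower and 0 higher at an unadjusted p under 0.05, and the median was -0.20. These were Derl1 and Derl2, which encode channel proteins of this pathway, with log2 fold changes of -0.68 (adjusted p = 1.24e-10 from edgeR) and -0.52 (adjusted p = 4.10e-07 from edgeR). Derl2 was not called without the first WT soft (-0.49) or the first WT stiff library (-0.47). Of the 15 degradation genes 14 had a negative log2 fold change in WT. Without a minimum size 7 were lower at an adjusted p under 0.05 (edgeR), against 20.0% of all tested genes, and 0 higher. Their interaction was positive for all 15 and called for 1, and 6 passed the p threshold alone, against 15.3% of the tested genes. Of 15 genes of the translocon and ER entry 1 rose and 0 fell, with a median of -0.022 and with 6 lower and 3 higher at an unadjusted p under 0.05. This was Spcs3, a subunit of the signal peptidase, which had 98.7 ± 6.50 CPM on WT soft and 227.5 ± 2.72 on WT stiff (SD, n = 2) and rose by 1.20 on the log2 scale (adjusted p = 2.96e-12 from edgeR).
Among chaperones outside the ER the called genes were again too few to stand apart from those shares. Of 9 cytosolic heat shock genes 1 rose and 1 fell in WT, with a median of 0.11. At an unadjusted p under 0.05, 4 were higher and 1 lower, against 3481 and 3373 of all 14279 tested genes. Of the 9, 7 had a positive log2 fold change, opposite in direction to the 10 genes. Hspb1, a small heat shock protein that binds actin, had 318 ± 16.6 CPM on WT soft and 915 ± 15.4 on WT stiff (SD, n = 2) and rose by 1.53 (adjusted p = 1.21e-14 from edgeR), and Hspa1b fell by 0.93 on the log2 scale (adjusted p = 0.000173 from edgeR). Of 7 mitochondrial chaperones and proteases 0 were called, 2 were higher and 2 lower at an unadjusted p under 0.05, and the median was 0.045. DESeq2 gave the same numbers of called genes in WT for these 5 lists. In KO hepatocytes 0 of their genes were called between the hydrogels by either tool, and between 0 and 2 in each had an unadjusted p under 0.05. Of all 14279 tested genes 622 were higher and 455 lower at that unadjusted p.

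**Figure D4:**
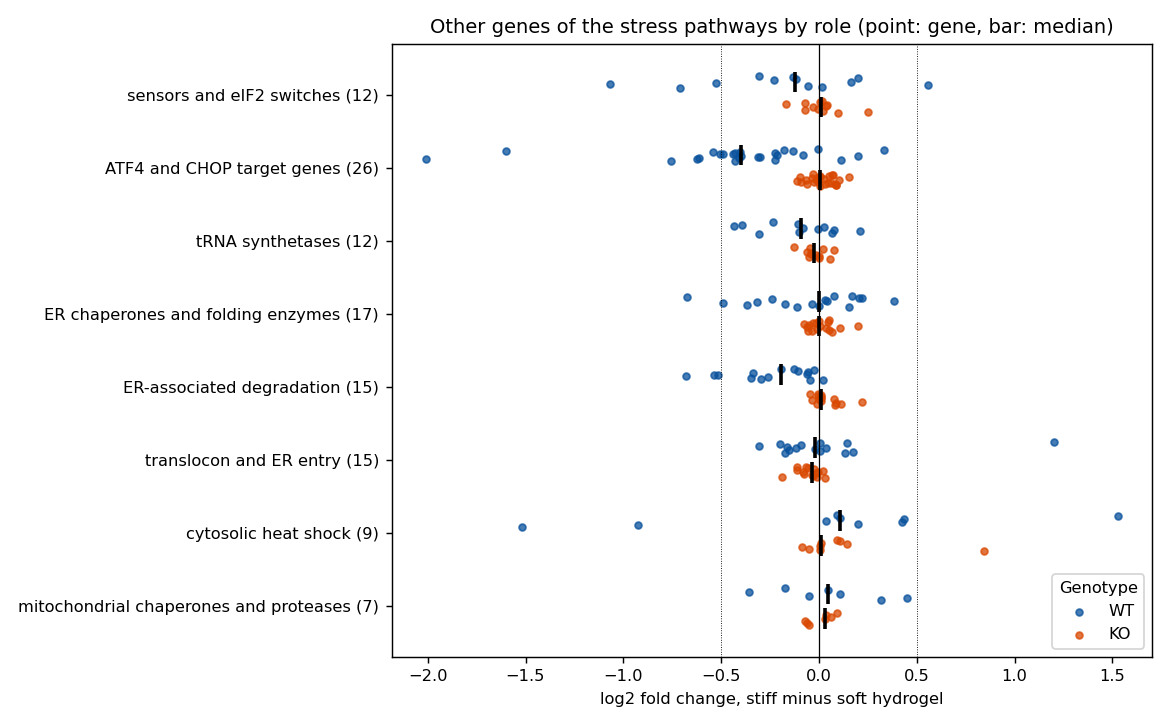
Each point is a tested gene of a list (number in brackets), placed by its log2 fold change between the stiff and the soft hydrogel in WT (blue) or KO (orange), with a bar at the median. The WT points of the ATF4 and CHOP target genes lie mostly left of 0, with a median of -0.40 and Slc7a11 at -2.01, while the KO medians of all 8 lists lie between -0.034 and 0.032.

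The pattern of Ddit3 and Hspa5 over the 4 groups was compared with that of 10027 other genes with a mean of at least 100 counts, by the root mean square difference of the group means of log2 CPM after centring each gene. The genes nearest to Ddit3 were Asrgl1 (0.016), Gpcpd1 (0.024) and Car8 (0.025). Relative to its own mean, Asrgl1 was at -0.056 on WT soft, -0.77 on WT stiff, 0.43 on KO soft and 0.39 on KO stiff, where Ddit3 was at -0.065, -0.77, 0.45 and 0.38. Nearest to Hspa5 were Aftph (0.012), Gstm5 (0.014) and Ephx2 (0.014). These are likenesses over 4 group means and carry no test.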

How the data were processed

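RNA of 8 libraries was sequenced on the Illumina platform in paired-end mode. The authors aligned reads with HISAT2 (2.0.5) and deposited raw counts per gene from featureCounts. The submitters' processing notes name mm9, but the positions in the table are not those of GRCm38 and its build is not given in the sources used here. No per-sample column was left unmapped. In R 4.3.3, genes were filtered with filterByExpr (14279 of 56748 kept), scaled by TMM (factors 0.978 to 1.02) and fitted with edgeR 4.0.16 (glmQLFit, 4 group means, 4 residual degrees of freedom). CPM are counts over the library's total of tested genes and its TMM factor, and the prior count for log2 CPM was 2. Standard errors are the log2 fold change over the root of the F statistic. The steps were tested on simulated data. Alternatives used DESeq2 1.42.0, other scalings, filters, thresholds and sample sets. Shared sequence was read from 64-base windows of GENCODE M21 transcripts. Figures were drawn with matplotlib 3.10.9.

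The 10 genes, the pathway lists, the markers and the elements searched were chosen with earlier results of these data known. Beside the 10 genes, the text names 7 sensors and switches, the 2 highest and 2 lowest called genes of each list (mean of 100 counts or more), and the 3 genes nearest in pattern to Ddit3 and Hspa5. No replicate pair looked like a repeat of 1 library, as chi-square over its degrees of freedom was 2.62 to 5.45 for genes with 10 or more counts in each. Mars1, Atf6b and the marker genes outside this rule were named because a result touches them.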

Additional observations from a re-analysis of the deposited data

Results flagged for a closer look

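For 7 of the 10 genes the stiffness effect differed between the genotypes in the test of the interaction. The stiffness effect in KO minus that in WT was 0.64 for Ddit3, 0.95 for Xbp1, 1.10 for Trib3, 0.62 for Asns, 0.72 for Chac1, 0.61 for Herpud1 and 0.82 for Dnajb9 on the log2 scale. Groups of 2 libraries are too small to test for a library that stands apart.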

How the results depend on the processing

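In WT, 7 genes were called lower and 0 higher with DESeq2, other scalings, no filter on low counts, a replicate block and the 4 libraries compared, and 6 to 7 and 0 with 1 library left out. In KO 0 were called either way in each of these, in the interaction 7 more positive and 0 more negative, and on stiff 6 higher and 0 lower. The interaction was not fitted on 4 libraries. On soft, leaving out 1 library gave 1 to 2 higher and 0 to 1 lower. With no minimum fold change the genes called in KO against WT were 4 higher and 1 lower on soft and 10 higher on stiff. The direction turned for Herpud1 in KO against WT on soft with library size only (0.0080) and for Xbp1 in KO between the hydrogels without the filter (-0.0037). With 1 library left out, values near 0 turned as well. Between the hydrogels in KO, Ddit3 ran from -0.16 to 0.015, Xbp1 from -0.0060 to 0.014, Chac1 from -0.061 to 0.017 and Dnajb9 from -0.12 to 0.016. In KO against WT on soft, Hspa5 ran from -0.11 to 0.00037, Hsp90b1 from -0.0081 to 0.090 and Dnajb9 from -0.057 to 0.084. Eif2ak4 in WT ran from -0.013 to 0.051. The replicate numbers are not said to pair samples, same-numbered deviations correlated between -0.32 and 0.21 over the 6 pairs of groups, and the block changed 0 of 72 calls and no value by more than 0.0045. The counts of all genes called in WT were 3006 higher and 2853 lower without a minimum fold change, against 1432 and 1322. At 2 libraries per group, small differences such as those on soft may go undetected.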
